A study of Mus musculus with 6 samples.

Results

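The comparison described here sets 2 microarrays that carry brain markers against the 4 other arrays of a mouse series, as a contrast between tissue profiles and not between treatments. The 2 arrays are those labelled mock brain and SHT ovary, and the 4 others are those labelled SHT brain, mock uterus, mock ovary and SHT uterus. The arrays were put on sides by measured values, namely the high readings of Snap25, Mbp, Slc1a2 and Camk2a on 2 of them. Everything below is therefore a description of how far apart the sides lie, with no test and no p-value. The members are the genes that separate all arrays of the 2 sides by at least 2-fold, which were 1968 genes higher and 2019 genes lower on the brain-marker arrays, of 17742 genes with a symbol.

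The series measured RNA of 3 labelled tissues (brain, ovary and uterus) of female BALB/c mice, an inbred strain, on 1-colour arrays. SHT stands for Sheng-Hua-Tang, a decoction of herbs, which treated animals received orally over 7 days at a dose of 200 mg/kg, and mock animals did not. Every combination of tissue and treatment was 1 array, with no replicate, so the number of arrays limits the precision. The labels do not say how many mice stand behind an array, how old they were, or whether the tissues of a treatment came from the same animals.

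The brain markers went against 2 labels: the array labelled SHT ovary carried them and the array labelled SHT brain did not. The 4 arrays without brain markers fell into pairs that cross their labels as well. Star, a gene of steroid-producing ovarian cells, read 9160 and 10428 on the arrays labelled SHT brain and mock uterus and 33.3 and 78.3 on those labelled mock ovary and SHT uterus, while Krt5, a keratin of stratified epithelium, read 36716 and 29948 on the latter 2 and 104 and 115 on the former. Arrays are called by their labels from here on, with no tissue or treatment assigned to them, and which label is wrong, if any, cannot be told from these values. Between the sides, the Pearson correlation of log2 intensity over 26423 probes was 0.813 to 0.847. The 2 brain-marker arrays correlated at 0.996 and the 4 others among themselves at 0.909 to 0.981, highest within each of those pairs. Median intensities lay between 179.5 and 223.9, and at most 5 probes an array read 65000 or more, taken as the top of the scale. Genes of olfactory receptors, 528 in number and silent in most tissues, gave each array's background spread. Their 95th percentile was 275.2 to 542.2, and 44.2% to 55.3% of genes read above it. Where a dim array read under its own percentile, that percentile took its place in the fold, which is then a lower bound ("at least").

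Brain tissue is made of neurons, which signal through electrically excitable membranes and chemical synapses, and of glia: astrocytes, which clear transmitter, and oligodendrocytes, which wrap axons in myelin. The ovary, oviduct, uterus and vagina are built from epithelia, collagen-rich stroma and smooth muscle, respond to oestrogen and progesterone, and keep dividing cells in the adult. In homogenised tissue, fewer cells of a type and less RNA per cell cannot be told apart.

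The gap used here is the log2 distance between the nearest arrays of the 2 sides, after each array was centred on its median, and it is 0 where the sides overlap. At a gap of at least 2-fold, 11.1% of genes were higher and 11.4% were lower on the brain-marker arrays, and these shares over all genes stand beside every count of list members below. Since the arrays were chosen on this contrast, nothing is read from a count that differs from them. The median difference between the means of the sides was 2.85 for the higher genes, -2.50 for the lower genes and -0.07 over all genes (log2). Differences and list medians, here and below, are taken without the lower bounds, so they also depend on readings within the background spread. Leaving out each array in turn gave 2036 to 2175 higher and 2127 to 2377 lower genes. Leaving out an array can only keep or widen a gap, so these counts could not fall and are no check on stability. At a gap of at least 4-fold, 1064 genes were higher and 777 lower. With every array's values first raised to its olfactory receptor percentile (defined above), 876 genes were higher, all among the 1968, and 1701 lower, of which 1194 were among the 2019. That percentile was 542.2 and 402.9 on the brain-marker arrays and 275.2 to 318.6 on the others. It lay above every array's median, so after this floor the arrays were centred on it, which also shifted them against each other. A further 6735 genes overlapped between the sides.

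**Figure D1:**
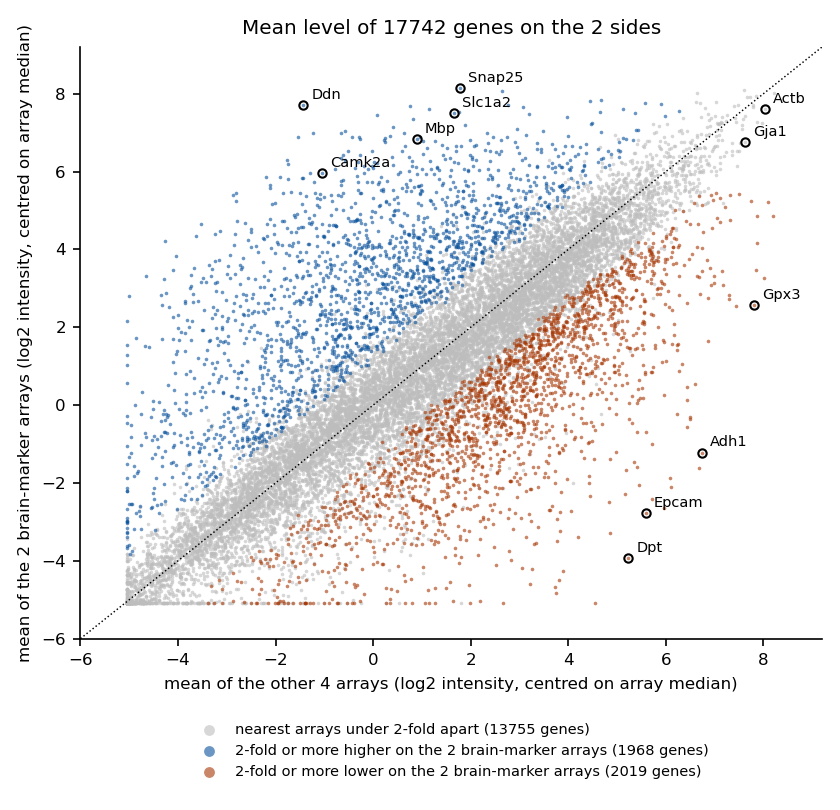
Mean of the 2 brain-marker arrays (vertical axis) against the mean of the other 4 (horizontal axis) for 17742 genes, in log2 intensity centred on each array's median; the dotted line marks equal means. Blue points are the 1968 genes at least 2-fold higher and red points the 2019 genes at least 2-fold lower between the nearest arrays, and Ddn and Dpt lie far from the line on opposite sides.

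Many of these genes read within the background spread on their dim side. Of the higher genes, 1093 read within the background spread on every one of the other 4 arrays and 500 read above it on all 6. Of the lower genes, 1322 read within the background spread on both brain-marker arrays and 574 above it on all 6. Within these counts, 419 higher and 193 lower genes read above the spread on no array, so for them both sides lay in the background spread and the levels are weakly measured. Every array of the brighter side was above the spread for 1489 higher and 1507 lower genes.

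Snap25, a membrane protein of the vesicle fusion machinery, read 58204 and 60038 on the brain-marker arrays (labelled mock brain, then SHT ovary, an order kept throughout). On the others it read 209.8, 768, 810.5 and 1601, in the order labelled SHT brain, mock uterus, mock ovary and SHT uterus, also kept throughout. The sides were at least 77.1-fold apart and did not overlap. Mbp, a structural protein of myelin, read 24552 and 23439 against 77.4, 296, 636 and 1256. Slc1a2, the main glutamate transporter of astrocytes, read 37985 and 38148 against 115, 479.8, 2995 and 929.9. Among the dim arrays, Slc1a2 was highest on the one labelled mock ovary, while Snap25 and Mbp were highest on the one labelled SHT uterus. Camk2a, a kinase of the postsynaptic density, read 13534 and 12489.6 against 63.3, 155, 90.7 and 94.7, with all 4 dim arrays in the background spread and a fold of at least 40.9. These 4 genes were part of the choice of arrays.

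Among genes above the background spread on all 6 arrays, the largest gap belonged to Sult4a1, a cytosolic sulfotransferase of neurons, which read 39370.1 and 42558 against 307, 377, 497 and 648. It was 87.8-fold higher by the means of the sides. Rab6b, a neuronal GTPase of Golgi transport, read 39744 and 37476 against 697, 696, 569 and 727, and its 4 dim arrays lay within 0.25 of each other on the log2 scale. Slc17a7, the vesicular glutamate transporter of cortical excitatory neurons, read 16353 and 16164 against 366, 355, 326 and 322, and no dim array overlapped. Rtn1, a reticulon of the neuronal endoplasmic reticulum, read 53458 and 59688 against 1769, 2167, 610.5 and 1015, with higher values on the arrays labelled SHT brain and mock uterus than on the other dim arrays.

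The rest of this set also held genes of neuronal signalling. Gnao1, a G protein subunit abundant in brain, was 39.5-fold higher, and Gabbr1, a subunit of the metabotropic GABA receptor, was 27.4-fold higher. Nrgn, a calmodulin-binding protein of dendritic spines, was 29.1-fold higher. Ppp1r1a and Prkar1b, an inhibitor of protein phosphatase 1 and a regulatory subunit of protein kinase A, were 33.9-fold and 25.4-fold higher. Sp7, known as a transcription factor of bone-forming cells, was in the same set with 23606 and 23016 against 450, 501, 376 and 596, and whether its probe measures that gene is not known here.

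Where every dim array lay in the background spread, the largest lower bound was that of Ddn, a protein of dendrites, which read 43466 and 44201 against 42.4, 204, 55.1 and 60 and was at least 138-fold higher. Cck, which encodes the neuropeptide cholecystokinin, read 25431 and 28096 against 40.3, 166, 59.2 and 129. Sst, which encodes somatostatin, read 24258 and 29266 against 86.8, 120.4, 130.4 and 177. Hpcal4, a neuronal calcium sensor, was at least 78.2-fold higher and Sv2a, a synaptic vesicle glycoprotein, at least 73.9-fold. Brsk2, a kinase of neuronal polarity, Tagln3 and Nrsn1 were at least 60.6-fold, 57.3-fold and 56.8-fold higher.

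**Figure D2:**
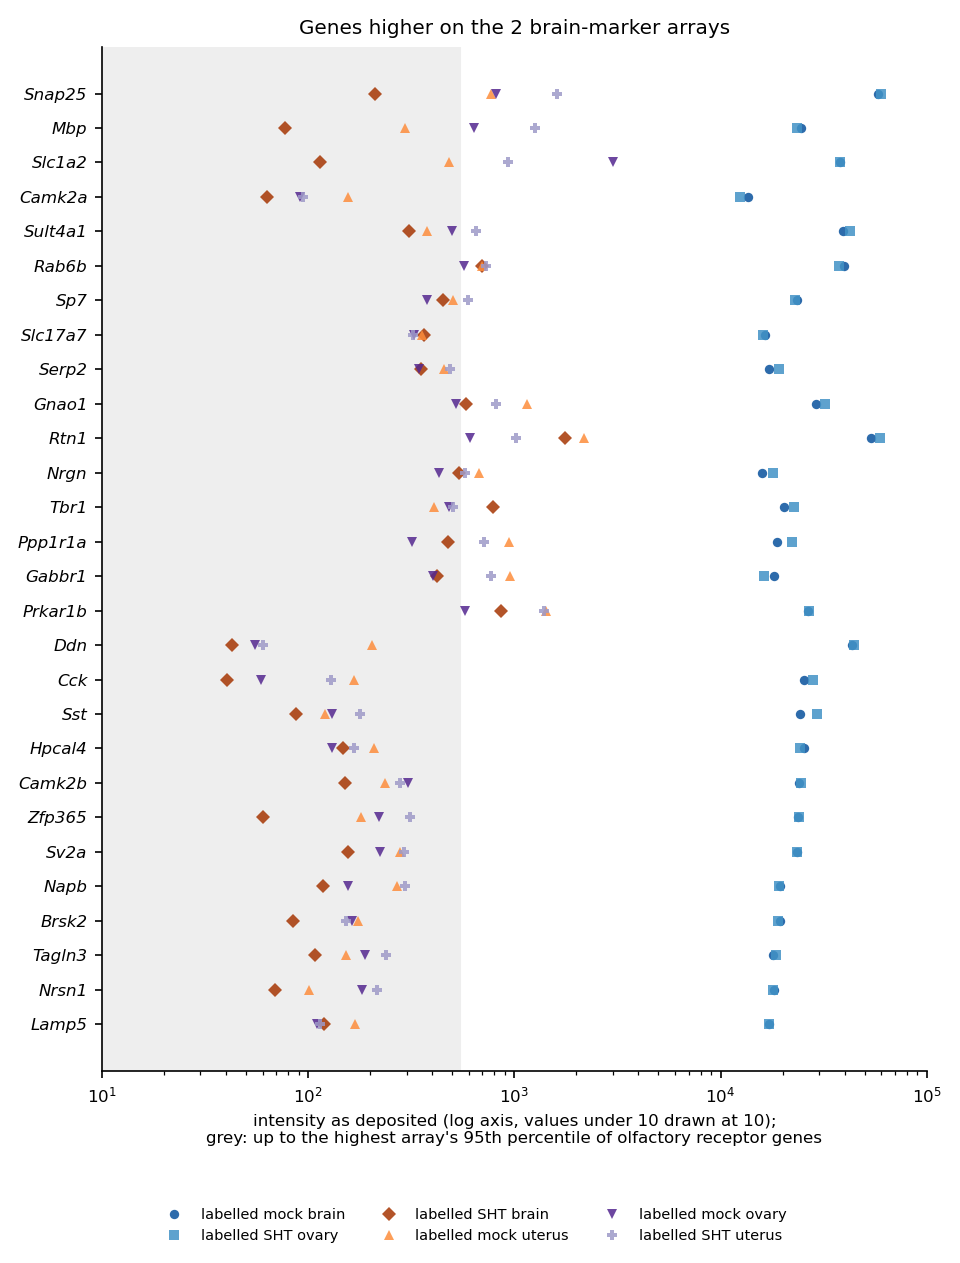
Intensity as deposited on a log axis (horizontal) for the 4 marker genes and the 24 genes named by rule as higher on the brain-marker arrays (rows), with 1 symbol for each array. The blue circle and square of the brain-marker arrays lie together at the right for every gene, and the 4 other arrays lie to their left with no overlap.

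Genes of the neuronal cytoskeleton and axon were high on the brain-marker arrays as a group. Of 26 measured, 23 were higher and 0 lower, with a median difference of 4.71. Kif5a, a kinesin motor of axons, read 38098 and 35297 against 54.8, 255, 298 and 452. Nefm, a neurofilament subunit, read 21929 and 27937 against 0.652, 2.01, 541 and 970.2, so it was near 0 on the arrays labelled SHT brain and mock uterus and above the background spread on those labelled mock ovary and SHT uterus. Nefl, its partner subunit, read 1.34, 2.61, 272 and 454 on the dim arrays, above the background spread on the array labelled SHT uterus. Map1b and Ncam1, a microtubule protein and an adhesion molecule, had gaps of 0.75 and 0.64 and missed 2-fold. The probe of Cntn1, an axonal adhesion protein, read at most 2.5 on any array.

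Genes of synaptic vesicles and transmitter release had the largest list median, 5.49, with 18 of 21 higher. Unc13a, a priming factor of vesicles, read 10530.2 and 10581 against 36.5, 77.6, 32.1 and 48.3. Pclo, a scaffold of the active zone, read 8464 and 8833 against 87.3, 148, 44 and 58.7. Slc32a1, the vesicular transporter of GABA and glycine, read 10372 and 12552 against 120, 131, 80.2 and 197. On all 3 the dim arrays were in the background spread. The members that did not separate were Sv2c and Stx1a, with differences of 1.23 and -0.69, and Bsn, whose probe read 94.3 and 55.3 against 87.6, 327, 146 and 480.

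Of 28 genes of glutamate receptors and the postsynaptic density, 23 were higher, with a median of 4.39. On the lower bounds, with 0 where the brighter side lay in the background spread, the median was 2.33. Of the 28, 20 read above the spread on both brain-marker arrays and 6 on no array. Grin1, the obligatory subunit of NMDA receptors, read 10217 and 9923 against 39.1, 88.6, 28.4 and 43.6, and Grm5, a metabotropic receptor, read 5688 and 5780.3 against 37.3, 54.9, 43.7 and 48.9. Grin2b, an NMDA receptor subunit, had a gap of only 0.87, and its probe read 2028, 2516, 2484 and 2243 on the other 4 arrays. Of 18 genes of GABA and glycine signalling, 16 were higher (median 4.59, or 2.71 on the lower bounds). Of the 18, 14 read above the spread on both brain-marker arrays and 4 on no array. Gabrb2, a GABA receptor subunit, read 9191 and 9314 against 103, 109, 21.7 and 59.6, and Gad2, a GABA-producing enzyme, read 5553 and 5063 against 111, 82.3, 79.7 and 61.2. Gad1, the other such enzyme, had a probe at no more than 18.2 on any array, which leaves that gene unmeasured here.

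Voltage-gated channels of neurons were higher in 26 of 28 members (median 3.76). Cacng3, an accessory protein of AMPA receptors related to calcium channel subunits, read 3843 and 3904 against 7.05, 19.5, 8.31 and 10. Scn1a, a sodium channel of the axon, read 2296 and 2363 on the brain-marker arrays and at most 22.3 on the others, and its relative Scn2a read 4016 and 3997 and at most 115. Kcnab1 and Cacna1b missed 2-fold with gaps of 0.75 and 0.55. Among the members that counted, Kcnj3, Kcnq3, Cacna1e, Cacng2 and Cacng8 were in the background spread on all 6 arrays.

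Genes of RNA-binding and splicing factors known from neurons were higher in 11 of 15, with a median of 4.24. Celf5 read 24729.6 and 26229 against 243, 342, 181 and 269, and Rbfox3, whose protein is the nuclear antigen NeuN, read 10509 and 11949.5 against 161, 219.6, 157 and 267. Msi1, Khdrbs3, Ptbp2 and Mbnl2, which other tissues also use, had gaps of 0.79, 0.80, 0.48 and 0. A second probe of Ptbp2 had a gap of 3.17.

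Lists of genes known from brain regions were read next. Of 19 genes of cortical projection neurons, 17 were higher, with a median of 5.11. Hs3st2, a heparan sulfate sulfotransferase, read 7593 and 10279 against 24.8, 27.8, 18.7 and 42.6. Neurod2, a transcription factor of excitatory neurons, read 4977 and 5652 on the brain-marker arrays and at most 28.7 on the others, and its relative Neurod6 read 1957 and 2022 and at most 10.7. Tbr1, a factor of deep-layer and early cortical neurons, read 20428 and 22764 against 783, 406, 481 and 505. Interneuron and neuropeptide genes were higher in 16 of 21 (median 3.61), among them Dlx1, a homeobox gene of interneurons, with 4472 and 4360.1 against 30.2, 27.7, 29.1 and 24.4. Dlx5, a related homeobox gene, overlapped between the sides, with 1269 and 1160 against 5958, 382, 3752 and 4297.

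In the lists of other regions, the higher members were 9 of 16 for striatum, with 0 lower, 5 of 11 for hippocampus, with 1 lower, and 6 of 17 for cerebellum, with 0 lower. Monoamine neurons and brainstem had 2 higher and 2 lower of 15, and thalamus, hypothalamus and pituitary 2 and 2 of 21, shares near those over all genes. Above background on no array were 8 members of the cerebellum list, 6 of the monoamine list and 13 of the thalamus list, so these lists were measured in part only. In striatum, Drd1, a dopamine receptor, read 1402 and 1575 against 82.3, 80.8, 70.1 and 127, while the probe of Drd2 read 11.7 and 10.2 on the brain-marker arrays. In cerebellum, the members that counted included Cbln1, a synaptic organiser of granule cells, with 486 and 418 against 16.4, 24.9, 21.7 and 24.6 and above the background spread on the array labelled SHT ovary only. Zic1, a zinc finger factor of granule cells and other regions, read 2976 and 3146 against 74.3, 121, 32.7 and 43.6. Other cerebellar genes, Gabra6, Pcp2, Cbln3 and En2 read at most 10.3, 176, 12.4 and 141 on the brain-marker arrays, all within the background spread. The same held for Oxt, Avp and Hcrt, hormones of the hypothalamus, with at most 88.4, 303 and 55.5, and for Gh and Prl of the pituitary, with at most 235 and 24. Trh, a releasing hormone, did separate, with 1974 and 1754 against 189.8, 237, 243 and 238. These genes were named after their values were seen.

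Astrocyte genes were higher in 14 and lower in 1 of 23, with a median of 3.10. Mlc1, a membrane protein of astrocyte endfeet, read 2817 and 2794 against 39.8, 50.8, 12.4 and 9.66. Cspg5, a neural proteoglycan, read 15019 and 13861 against 142, 277, 97.3 and 144. Some genes used as astrocyte markers did not separate and also read high on arrays of the other side. Gja1, the main astrocyte connexin and also a connexin of smooth muscle and granulosa cells, read 22822 and 22415 against 41525, 47074, 35689.8 and 32266. Gjb6, an astrocyte connexin that stratified epithelia also use, read 10665 and 10145 against 110.2, 96.4, 23462 and 6865, so the arrays with the labels mock ovary and SHT uterus bracketed the brain-marker arrays. Clu, a secreted chaperone, overlapped, with 35409.7 and 35921 against 31185, 40812, 11178 and 13273.

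Oligodendrocyte and myelin genes were higher in 12 and lower in 1 of 22 (median 2.24). Olig1, a transcription factor of the lineage, read 15241 and 14706 against 211, 296, 266 and 292, and Ermn and Opalin, proteins of mature oligodendrocytes, were at least 3.27-fold and 4.06-fold higher. Cldn11, the claudin of myelin and of Sertoli cells, read 21418 and 20606 against 1678, 3294, 103 and 308. Trf and Car2, transferrin and a carbonic anhydrase, overlapped between the sides. Of 11 genes of peripheral glia and neurons, 2 were higher and 3 lower. Of 9 genes of oligodendrocyte precursors, 6 were higher and 1 lower (Vcan, versican, a matrix proteoglycan, with 468 and 421 against 893, 1704, 1378 and 1757). The largest gap among the higher was that of Gpr17, an orphan receptor of differentiating precursors, with 1214 and 1206 against 7.67, 9.92, 11 and 17. Pdgfra, which precursors share with fibroblasts, had a negative gap under 2-fold, at 3135 and 2326 against 4914, 7983, 6688 and 10063 with a gap of -0.92.

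Lists of microglia, brain endothelium and choroid plexus had shares near those over all genes. Of 16 microglial genes, 1 was higher (Siglech, above background on no array) and 1 lower, with a median of -0.37. C1qa, a complement subunit of macrophages, read 10022 and 13014 against 11152, 14621, 13976 and 21783, and Csf1r, the macrophage growth factor receptor, read 2142 and 2448 against 1069.5, 1529, 2539 and 3394. Cx3cr1, a chemokine receptor, had a gap of 0.13. Of 12 genes of brain endothelium, 2 were higher, both of them Slco transporters of the blood-brain barrier (Slco1a4 and Slco1c1), and Cldn5, a tight junction protein of vessels, read 3396 and 3520.3 against 3162, 4775, 1331 and 2577. Of 13 choroid plexus and ependyma genes, 2 were higher and 2 lower. Ttr, the thyroid hormone carrier made by choroid plexus, read 1607 and 2515 against 23.6, 94.3, 148 and 274.

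On the other side, among genes above the background spread on all 6 arrays, the largest gap belonged to Gpx3, a secreted glutathione peroxidase. It read 1392 and 1099.9 on the brain-marker arrays and 34426, 58543, 40144 and 46684 on the others, and was 37.8-fold lower on the brain-marker arrays by the means. Tuba1c, an alpha tubulin, read 698 and 616 against 17874, 19189, 29679 and 28292, a 37.4-fold difference. Serpinh1, the collagen chaperone, and Acta2, the actin of smooth muscle, were 27.8-fold and 27-fold lower. Acta2 read 2413 and 1688 against 42276, 45362, 60854 and 59636, and its 4 bright arrays lay within 0.63 log2 units of each other. Ltf, lactoferrin, an antimicrobial protein of the oestrogen-exposed uterus, read 1290.4 and 1168 against 42062, 22691, 22638 and 62708, with the arrays labelled SHT brain and SHT uterus brightest.

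Others in this set belonged to matrix, cytoskeleton and secretion. Flna, an actin cross-linker, was 23.8-fold lower on the brain-marker arrays, and Anxa2, a membrane-binding annexin, 20.9-fold. Htra3, a secreted protease, Smoc2, a matricellular protein, and the collagen chains Col18a1 and Col6a1 were 25.7-fold, 18.9-fold, 19.8-fold and 22.1-fold lower. Rarres2, the precursor of the chemoattractant chemerin, read 1376 and 1436 against 23568, 28725, 20227 and 21186, with the 4 bright arrays within 0.55 log2 units of each other.

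Where both brain-marker arrays lay in the background spread, the largest bound was that of Adh1, an alcohol dehydrogenase that also oxidises retinol. It read 94.8 and 85.3 against 22733, 17977, 28310.2 and 17352 and was at least 48-fold lower. C3, the central complement component and an oestrogen-induced protein of the uterus, read 186 and 153 against 34882, 20084, 8412 and 17514. Mmp2, a gelatinase, and Lum, a collagen-binding proteoglycan, were at least 38.6-fold and 33.6-fold lower. Sprr2f, a uterine oestrogen-responsive gene of the small proline-rich family, read 39531, 733, 21342 and 53527 on the 4 other arrays, where the array labelled mock uterus was far below the other 3. Cbr2, a carbonyl reductase, was likewise lowest of these 4 on the array labelled mock uterus, at 2967.

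**Figure D3:**
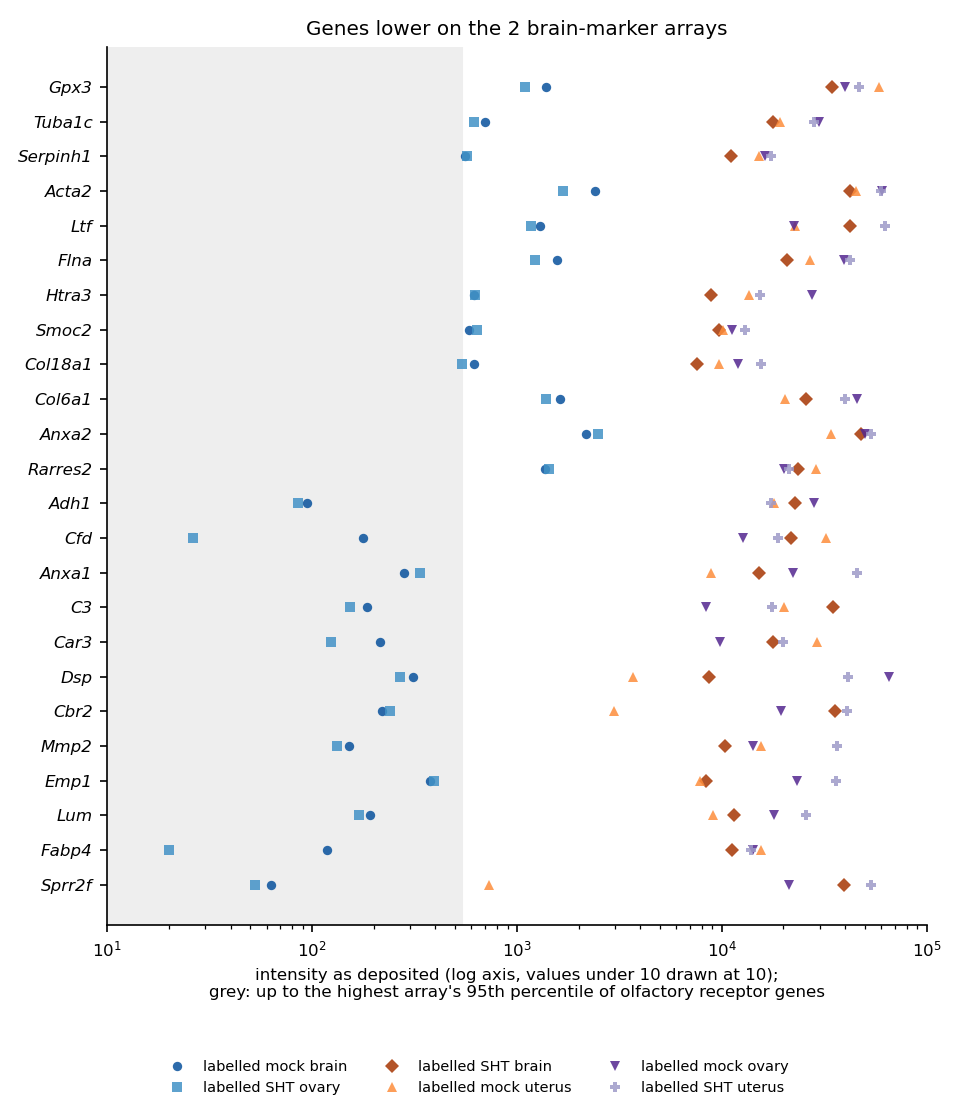
Intensity as deposited on a log axis (horizontal) for the 24 genes named by rule as lower on the brain-marker arrays (rows), with 1 symbol for each array. The blue circle and square of the brain-marker arrays lie at the left of every row, and the other 4 arrays spread most for Sprr2f, where the array labelled mock uterus reads 733.

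Genes of simple epithelium were lower in 21 and higher in 1 of 33 members, with a median difference of -3.69. Epcam, an adhesion molecule of epithelia, read 34.7 and 27 against 17496, 5509, 4938 and 17082. Esrp1, a splicing factor of epithelial cells, read 21 and 21.9 against 5599, 1630.1, 10740.5 and 10853, and Krt19, a keratin of simple epithelia, read 143 and 119 against 17260.2, 5757, 3922 and 13040.5. The array labelled mock uterus was the dimmest of these 4 for Esrp1. For Epcam and Krt19 the arrays labelled mock uterus and mock ovary were both below the other 2. Krt8, another such keratin, read 16008, 2523, -0.327 and 979, so it was at the bottom of the scale on the array labelled mock ovary and did not count. Junction genes of epithelia were lower in 11 of 19 (median -3.34), among them Dsp, desmoplakin, with 310.2 and 269 against 8681, 3675, 65579.8 and 41552 and the array labelled mock ovary at the top of the scale.

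Transcription factors of the Müllerian duct and gonad were lower in 16 and higher in 2 of 33 (median -2.53). The median was only -0.016 on the lower bounds, with 0 where the brighter side lay in the background spread. Of the 33, 9 read above that spread on no array. Wt1, a factor of the coelomic lining and gonad, read 33.4 and 28.8 against 3544, 4924, 1212 and 3029.8. Tcf21, a factor of mesenchyme, read 68.8 and 55.9 against 1808, 2558, 889.9 and 2058, and Foxl2, known from granulosa cells and uterine stroma, read 249.8 and 246 against 12312, 21556, 3641 and 3942. Hoxa10 and Hoxa11, homeobox genes of the uterus, were within the background spread on the brain-marker arrays. On the others Hoxa10 read 1163, 324, 2805 and 6642 and Hoxa11 read 678, 188, 1889.8 and 3669, so for both the arrays with the labels mock ovary and SHT uterus were the brightest. Of 23 Wnt pathway genes, 4 were lower, led by Sfrp4, a secreted Wnt antagonist, with 134 and 125 against 11004, 17832, 7577 and 5755.

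Sex steroid receptors and their targets were lower in 12 of 24 members (median -3.44). Esr1, the oestrogen receptor alpha, read 129 and 95.7 against 4327, 1391, 6286 and 10351, and Greb1, a target of it, read 62.3 and 56.7 against 4896, 9398, 3489.8 and 1983. Pgr, the progesterone receptor, overlapped between the sides, with 2488 and 2497 against 4452, 1844, 19510.1 and 13506. Esr2, the oestrogen receptor beta, was bright on the arrays labelled SHT brain and mock uterus only, at 2316 and 2741, and overlapped as well.

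Collagens and other matrix genes were lower in 34 and higher in 1 of 40 (median -3.46). Dpt, dermatopontin, read 13.4 and 14 against 5348, 2539, 13482 and 16258. Col1a2, a chain of fibrillar collagen I, read 69.4 and 83 against 3328, 4208, 19206 and 15515. Col3a1, the chain of collagen III, read 8.95 and 8.34 against 1291, 791, 3870.4 and 2905. Fbln1, Loxl1, Fmod and Ltbp2 overlapped or lay close, with differences of 0.10, 0.03, 0.64 and -0.33, and Eln, elastin, had a gap of -0.53. Genes of matrix remodelling were lower in 16 of 24 (median -3.43), such as Timp1, a protease inhibitor, with 88 and 95.5 against 7523, 14692, 5089 and 2702.

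Fibroblast and mesenchyme genes were lower in 13 of 23, and smooth muscle genes in 8 of 14. Aebp1, a regulator of adipogenesis and matrix, read 127 and 113 against 2069, 3098, 4047 and 7908. A second Aebp1 probe overlapped between the sides, with 881 and 653 against 461, 510, 723 and 784. Tagln, the calponin-like SM22 of smooth muscle, read 18.7 and 13.3 against 809, 539.9, 3049.5 and 2634, and Des, desmin, read 131 and 109.8 against 2175, 711, 13588 and 7001. Within the 4 bright arrays, Tagln and Des were highest on those labelled mock ovary and SHT uterus. Skeletal muscle genes counted in 1 of 9. The sum of their intensities was 1977 to 2012 on the brain-marker arrays and 944 to 11953 on the others, with the array labelled SHT uterus highest.

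Adipocyte genes were lower in 7 and higher in 1 of 14 (median -2.85). Fabp4, a fatty acid carrier, read 118 and 19.9 against 11168, 15615, 14217 and 13816, and Adipoq, adiponectin, read 89 and 49.2 against 8371, 18117, 3070.4 and 5735. Cfd, the adipocyte protease adipsin, and Car3, a carbonic anhydrase, were at least 45.9-fold and 40.4-fold lower. Their levels summed to 5132 to 5874 on the brain-marker arrays and 48124 to 125550 on the others. The part of fat in the matrix and complement lists was not tested. Ucp1, the uncoupling protein of brown fat, read 15.3, 19.6, 3459.9 and 6623 on the 4 arrays and so did not separate the sides.

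Antigen presentation genes were lower in 8 of 11 (median -2.64). H2-Aa, an MHC class II alpha chain, read 438 and 438 against 10346, 12147, 18236 and 27873. Cd74, the invariant chain, read 88.1 and 67.7 against 1451, 1828, 2437 and 4358. The array labelled SHT uterus was highest for both. Complement and coagulation genes were lower in 12 of 23, among them Cfb, factor B, with 69.7 and 68.6 against 23703, 2463, 4221 and 20271, and Serping1, the C1 inhibitor, with 295 and 277 against 7884, 10124, 6875 and 11875. Interferon-induced genes were lower in 6 of 22, and chemokines and cytokines in 6 of 24. Bst2, an antiviral membrane protein, read 579 and 653 against 24026, 31093, 7616 and 8377, and Ccl2, a monocyte attractant, read 35.4 and 29.3 against 1387, 659, 1648 and 863.

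General leukocyte genes were lower in 6 of 25, and neutrophil genes in 3 of 12. Cd14, a lipopolysaccharide co-receptor, read 334 and 381 against 7604, 3071, 3127 and 35712. S100a9, a calcium-binding protein of neutrophils, read 367, 992, 1007 and 37218 on the 4 arrays and overlapped with the brain-marker arrays at 215 and 789. Il1b, an inflammatory cytokine, read 489, 956, 949.6 and 24970. For Cd14, S100a9 and Il1b the array labelled SHT uterus stood far above the rest.

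S100, annexin and related proteins were lower in 15 of 20 (median -3.12). S100a6, calcyclin, read 6657 and 9054 against 52209, 53809.9, 56588 and 55153, and Capg, an actin-capping protein, read 168 and 162 against 8222, 3509.9, 11208 and 10039. Of 18 genes of insulin-like growth factors and their binding proteins, 5 were lower and 2 higher. Igf1, a growth factor, read 200.5 and 181 against 1144, 993, 2485 and 4012. Igfbp7, a secreted protein related to its carriers, read 5354 and 7012 against 38893, 45975, 51509 and 50554. Of 16 genes of retinoid handling, 6 were lower, among them Lrat, which esterifies retinol, with 7.33 and 9.02 against 520.3, 407, 879 and 504. Vascular and mural genes were lower in 7 of 18, and Plvap, a protein of fenestrated vessels, read 21392 and 21367 against 18827, 20652, 16892 and 20889.8 with overlap.

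Cell cycle genes were lower in 17 of 28 (median -2.78). On the lower bounds the median was -0.82, and 5 of the 28 read above the background spread on no array. Top2a, the topoisomerase of dividing cells, read 48.7 and 44.8 against 2806, 3186, 1369 and 953. Mcm6, a subunit of the replicative helicase, read 69.3 and 55.7 against 2409, 2956, 1401 and 1532, and Rrm2, a subunit of ribonucleotide reductase, read 114 and 105 against 1274, 1755, 2189 and 2072. For Top2a and Mcm6 the arrays labelled SHT brain and mock uterus were the brightest, and for Rrm2 the array labelled mock ovary. Mki67, the Ki-67 antigen, had a gap of -0.13 only, with 2516 and 2621 on the brain-marker arrays, and E2f1, a factor of S phase entry, overlapped.

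Several lists had low medians but few members that separated, with genes that were bright on only some of the 4 other arrays. Stratified and cornified epithelium had a median of -3.33 and 5 of 30 lower. Krt5 read 250.2 and 198 on the brain-marker arrays, above the 104 and 115 of the arrays labelled SHT brain and mock uterus. Steroidogenic and luteal genes had a median of -3.66 and 1 of 10 lower. Star, which carries cholesterol into mitochondria, read 36.3 and 31.6 on the brain-marker arrays and 33.3 on the array labelled mock ovary, all in the background spread. Granulosa and oocyte genes were lower in 2 of 21 and genes of oviduct and motile cilia in 1 of 19. Over all genes, 1784 were over 4-fold lower by the means of the sides, and for 385 of them (21.6%) the nearest arrays were under 2-fold apart. Of these 385, 124 were at least 2-fold higher on the arrays labelled SHT brain and mock uterus than on all other arrays, and 164 on those labelled mock ovary and SHT uterus. In the other direction, 67 of 1517 genes (4.42%) over 4-fold higher by the means missed the 2-fold gap.

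Genes that most cells use lay closer together. Of 35 subunits of oxidative phosphorylation, 2 were higher and 0 lower, with a median of 0.26. Cox4i1, a cytochrome oxidase subunit, read 32598 and 31633 against 26499, 32912, 24703 and 29353. Of 24 proteasome genes, 0 were higher and 0 lower, with a median of -0.45. Of 17 cytosolic ribosomal protein genes, 5 were lower and 1 higher (median -0.93), and of 10 house-keeping genes 3 were lower. Hprt, a purine salvage enzyme, read 16690.3 and 18997 against 12341, 13719, 19855 and 21092. Rplp0, a ribosomal stalk protein also used as a reference gene, read 1465 and 1663 against 6169, 4719, 4854 and 5054, a 3.51-fold difference.

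Glycolysis split by isoform. Of 15 genes, 6 were higher and 1 lower. Hk1, the hexokinase of brain, read 7276 and 7194 against 1084, 1438, 1477 and 2161, and Hk2, the hexokinase of muscle and proliferating cells, read 597 and 569.7 against 4912, 5141, 12507 and 15682. Pfkm and Pfkp, phosphofructokinases, were 5.38-fold and at least 4.56-fold higher, while Aldoa, Tpi1 and Pkm differed by 0.07, 0.29 and 0.14 on the log2 scale. Of 15 immediate early genes, 6 were higher and 2 lower. Arc, which synaptic activity induces in neurons, read 5381 and 6706 against 141, 143, 244 and 499, and Npas4, likewise induced, read 1663 and 1318 against 77.8, 106, 139 and 187. Fos and Jun, which many stressed cells induce, overlapped with differences of -0.29 and -0.17.

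**Figure D4:**
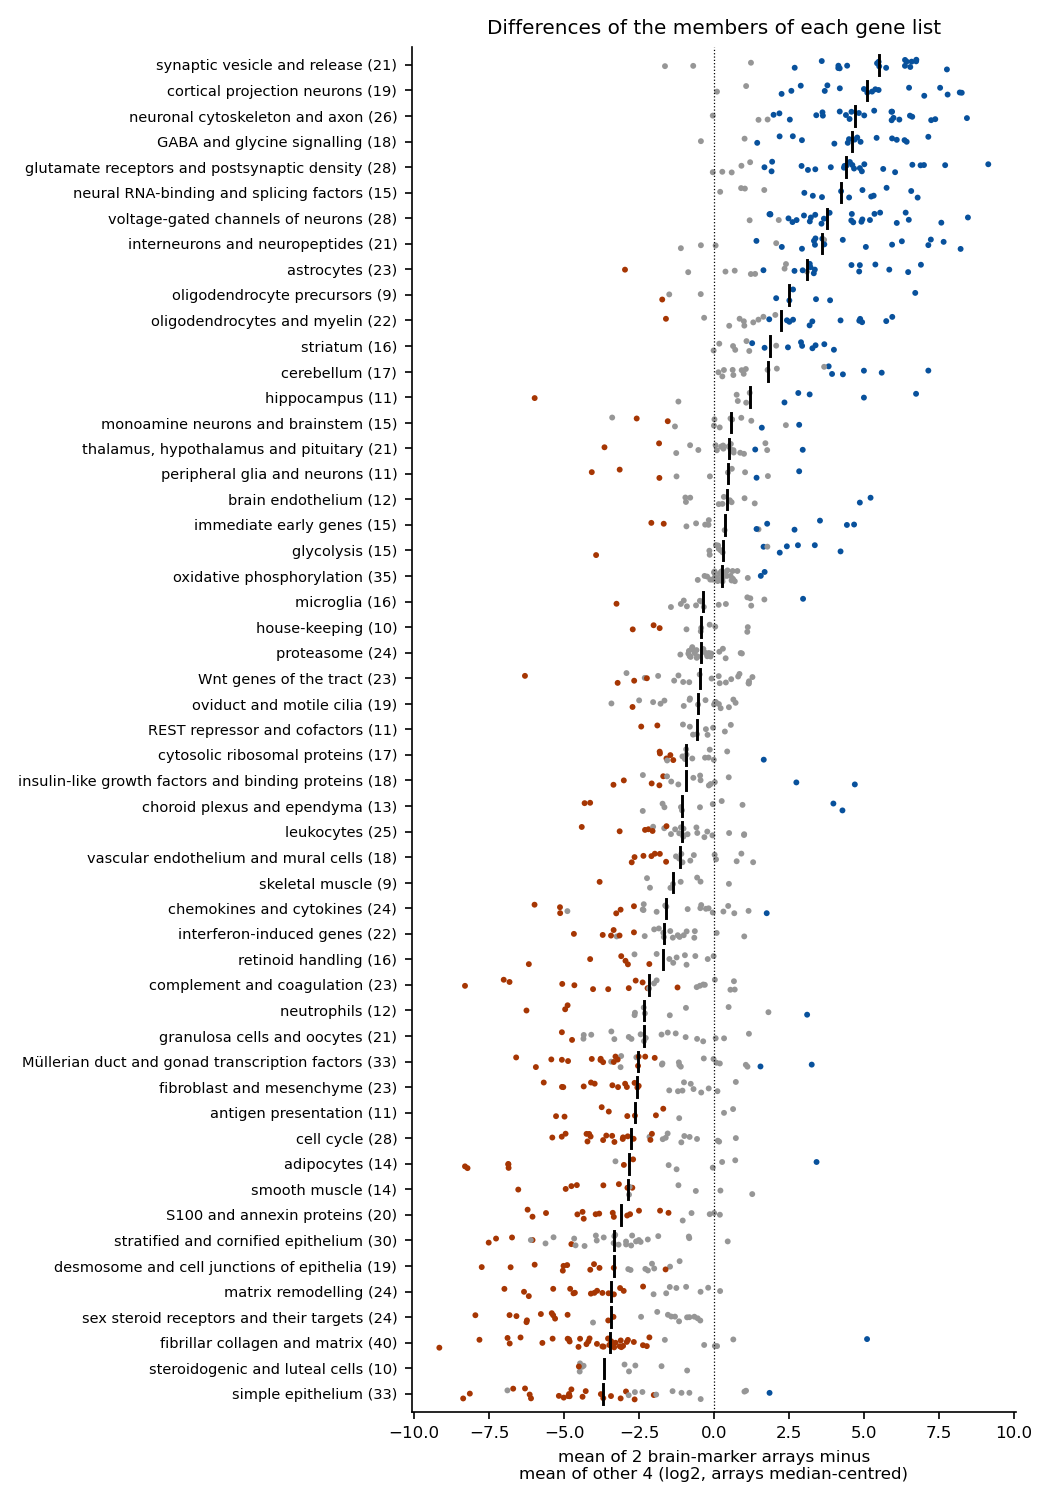
Difference between the sides (mean of the 2 brain-marker arrays minus mean of the other 4, log2, horizontal axis) for each member of the gene lists with at least 9 measured members, whose number stands in brackets. Points are genes (blue at least 2-fold higher, red at least 2-fold lower, grey neither), black bars are list medians, and they run from simple epithelium at -3.69 to synaptic vesicle and release at 5.49.

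Some related genes ran in different directions. Of 24 listed pairs of a gene known from neurons or glia and a relative that many other cells use, 15 had both members measured. The neural member was higher in 14 and the relative lower in 6, and in 5 pairs both held. For 1 relative, Camk2d, the call was higher, with no array above background. The median difference was 4.40 for the neural members and 0.07 for the relatives. Snap25 and Snap23, SNARE proteins of synapses and of other secretory cells, differed by 6.37 and -1.98, and Snap23 read 879 and 782 against 2242, 1799, 3233 and 7005. The dynamins Dnm1 and Dnm2 differed by 4.15 and -1.60, and the vesicle proteins Vamp2 and Vamp8 by 4.14 and -2.27.

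Other pairs showed the same contrast in RNA-binding and adhesion proteins. Elavl3, a neuronal RNA-binding protein, differed by 6.79, and its ubiquitous relative Elavl1, also called HuR, by -2.29. A second Elavl1 probe ran the other way, with a difference of 2.96. Ptbp1, a splicing repressor that neurons switch off, read 1943 and 1871 against 10750.3, 10720.1, 8134 and 9335, and Ptbp2, which replaces it in neurons, differed by 1.03 with a gap under 2-fold. A second Ptbp2 probe did separate the sides, with a difference of 3.51 and a gap of 3.17. Cdh2 and Cdh1, the cadherins of neural and epithelial tissue, differed by 2.07 and -4.83. For Kif5a and Kif5b, Map2 and Map4, and Aldoc and Aldoa, the relative differed little, by 0.20, 0.41 and 0.07. The relatives Rbfox2, Rab27a and Atp2b4 had positive differences of 1.17, 1.30 and 0.85, with gaps under 2-fold.

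**Figure D5:**
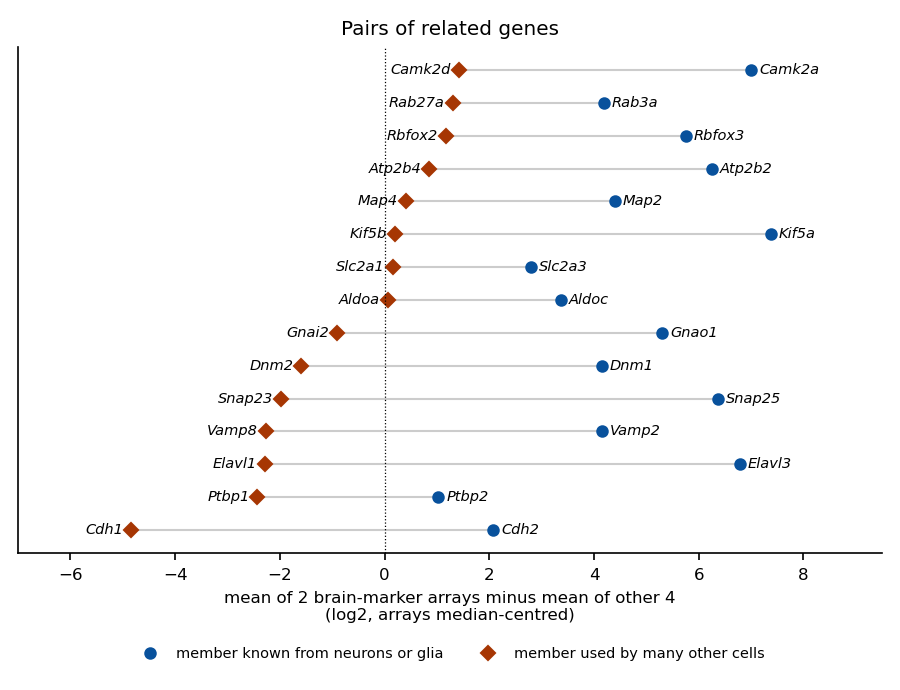
Difference between the sides (mean of the 2 brain-marker arrays minus mean of the other 4, log2, horizontal axis) for 15 pairs of related genes (rows). Blue circles are the neural members and red diamonds the relatives used by many other cells, which lie left of their partner in every row.

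Some probes ran against the list they stood in. Among genes listed for brain, Mog, a myelin glycoprotein, read 2044 and 1605 against 6021, 5277, 3858 and 5909, and Ntsr2, a neurotensin receptor of astrocytes, read 116 and 107 against 770.2, 1193, 366 and 1358. Prkcd, a kinase marking thalamic neurons, read 151 and 152 against 1812, 1933, 1240.1 and 2378, and Olfml3, listed for microglia, read 313 and 307 against 1740.4, 1279, 4956 and 5439. Among genes listed for the other tissues, Col1a1, a collagen I chain, read 5731 and 5705 against 78.7, 158, 204 and 240.1, opposite to Col1a2 at 69.4 and 83 against 3328, 4208, 19206 and 15515. Pappa, a protease of growth factor binding proteins, read 11057 and 9721 against 297, 335, 566 and 361, and S100a8 read 1924 and 2284 against 208, 111, 232 and 522. Lipe, hormone-sensitive lipase, read 3108 and 3354 against 181, 231, 342 and 458, opposite to Fabp4 and Adipoq. Igf2, a growth factor also made by meninges and choroid plexus, read 8245 and 6697 against 1057, 1679, 577 and 1167, and Nr2f1, a nuclear receptor of cortical patterning as well, read 3286 and 3919 against 232, 289, 392 and 598. Whether each of these probes measures the gene it is named for is not known here.

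Further probes of the same genes give a partial check. The higher genes had 360 further probes, of which 153 read above the background spread on an array. Of these 153, 94 separated the sides by 2-fold the same way, 5 the other way, and 131 had a mean difference of the same sign. The lower genes had 353 further probes, 203 of them above the spread, with 103 separating the same way, 10 the other way and 173 of the same sign. Camk2a, for example, had a second probe with a difference of 3.59, against 7.00 for the probe used. The second probe of Mbp ran the other way by the means, at -1.93 against 5.94, and the sides overlapped. This Mbp probe read 91.1 and 44.6 against 886, 407, 99 and 77.2. The second probe of Slc1a2 differed by 2.71 and was in the background spread on all 6 arrays.

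The 2 brain-marker arrays were close to each other, although their labels differ in tissue and treatment. Over 7816 genes above the background spread on both, 2 were at least 2-fold higher and 1 was at least 2-fold lower on the array labelled SHT ovary. Tmed9, a cargo receptor of the secretory pathway, read 4205 and 14195, and the other 4 arrays read 20668, 21394, 23717 and 25004. Setd3, a histidine methyltransferase of actin, read 1090 and 3141, and Dusp18, a phosphatase, read 2017 and 627. Among the 1489 higher genes above the spread on both, 0 were 2-fold apart, and the median absolute difference was 0.169 on the log2 scale. Ttr read 1607 and 2515 and Scn4b, a sodium channel subunit of striatum and other regions, 2759 and 4500.2, both brighter on the array labelled SHT ovary. Tmem25, a membrane protein of neurons, was brighter on the array labelled mock brain, at 6749 and 3239. With 1 array each, none of these differences has a replicate check.

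The other 4 arrays were less alike. They lay within 2-fold of each other for 1150 of the higher genes (58.4%) and 978 of the lower genes (48.4%). The median range over these 4 arrays was 0.862 for higher and 1.02 for lower genes on the log2 scale, against 0.77 over all genes. The brain-marker pair lay within 2-fold for 1966 of 1968 higher and 2012 of 2019 lower genes. A range over 4 arrays tends to be wider than a range over 2 even at equal spread, so these counts are not a like comparison. Pair by pair, correlations were 0.909 to 0.981 among the 4 and 0.996 for the brain-marker pair. Among the higher genes, the brightest of the 4 was the array labelled mock uterus for 778 genes and the one labelled SHT brain for 282. Among the lower genes, the brightest was the one labelled SHT uterus for 617 and the one labelled SHT brain for 409.

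Around the 2-fold limit, the higher genes just inside were Camk2d, Chchd6 and BC006965, each with a gap of 1.001. Just outside lay Iglon5, a neuronal adhesion protein, at 0.999, with Pip4k2b and Pmm1 both at 0.9999. Among lower genes, Gmfg and Ptger4 lay just inside, at -1.0001 and -1.001, and Nck1 and Chst7 just outside, at -0.9993 and -0.9999.

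Some genes of each direction were also neighbours on chromosomes. In the order of genes in the GRCm38.p6 gene table, the longest runs of genes that were all higher held 5 genes. They included Gabrg1, Gabra2, Cox7b2, Gabra4 and Gabrb1, a cluster of GABA receptor subunits around a cytochrome oxidase gene. Another such run held Rprm, Galnt13, Kcnj3, Nr4a2 and Gpd2. Among lower genes, runs of 5 included Hoxb8, Hoxb7, Hoxb6, Hoxb5 and Hoxb3 of the HoxB cluster, and Psmb9, Tap1, Psmb8, Tap2 and H2-Aa of the MHC class II region. A further run of 5 lower genes held Prrg2, Rcn3, Fcgrt, Flt3l and Aldh16a1. Runs can pass over genes, such as Hoxb4 between Hoxb5 and Hoxb3. How often such runs arise over all genes was not tested. Hoxb5 read 210.1 and 190.3 against 613, 618, 400.1 and 599.9 and Hoxb6 81.9 and 69.5 against 1385, 521, 459.8 and 816.

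The sequence before the transcription start is a property that the choice of genes did not use. RefSeq's promoter table (GRCm38.p6) held 13980 of the genes, 1554 higher and 1591 lower, and the 250 bases before the first listed start were searched on both strands. The TATA box, TATAAA, was in 7.53% of promoters of higher genes, 8.49% of lower genes and 9.71% of all. The GC box, GGGCGG, was in 52.2% and 57.6%, against 48.6% of all, and the median number of CpG sites was 13 in both directions and 12 over all. The E-box CAGCTG was in 14.5% of higher, 14% of lower and 12.5% of all promoters, and the CCAAT box, CCAAT, in 33.3%, 34.3% and 35.5%. The Grainyhead-like motif AACCGGTT was in 0.129% and 0.251%, against 0.157% of all, and the NR5A motif TCAAGGTCA in 0.129% and 0.251%, against 0.265% of all. These are counts of letters, with no binding measured.

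Among the genes above the background spread on all 6 arrays and named by rule, Rab6b and Gpx3 had the largest gap of those with an entry, and their promoters are shown as an example of each direction, neither with a match to TATAAA. Capitals mark GC and CCAAT boxes on either strand. Rab6b lies at chr9:103111824-103112073 on the plus strand with 40 CpG sites, and Gpx3 at chr11:54902604-54902853 on the plus strand with 11.
Rab6b: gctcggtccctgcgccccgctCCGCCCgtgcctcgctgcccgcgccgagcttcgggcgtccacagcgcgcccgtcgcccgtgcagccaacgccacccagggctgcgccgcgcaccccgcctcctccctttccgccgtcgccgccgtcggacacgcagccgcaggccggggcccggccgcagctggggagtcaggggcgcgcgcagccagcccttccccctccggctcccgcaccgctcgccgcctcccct
Gpx3: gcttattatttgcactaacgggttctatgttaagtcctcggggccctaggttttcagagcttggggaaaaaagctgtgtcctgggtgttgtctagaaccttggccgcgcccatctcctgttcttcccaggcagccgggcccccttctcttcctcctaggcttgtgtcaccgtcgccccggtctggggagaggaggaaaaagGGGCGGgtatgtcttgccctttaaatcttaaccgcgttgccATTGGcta

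The element RE1 is the binding sequence of REST, a repressor that keeps neuronal genes silent in other cells. Its left part, TTCAGCACC, was in the promoters of 12 higher genes (0.772%), 3 lower genes (0.189%) and 44 of 13980 genes in all (0.315%). The right part, GGACAGC, was in 7.01%, 5.72% and 5.87%. Both parts starting within 30 bases of each other on the same strand were found in 3 promoters, in a search that left out the genes of a chromosome. Grm2, a presynaptic glutamate receptor, was the only gene of these 3 among the higher or lower genes. Grm2 read 1818 and 1507 against 74.6, 134, 25.7 and 21.4. The probe of Rest itself read at most 35.2 on any array, within the background spread. Of 11 genes listed with REST and its cofactors, 2 were lower and 0 higher, and 5 were above the background spread on no array. The 2 were Ptbp1, a splicing repressor and not a REST cofactor, and Ctdsp1, in the background spread on all 6 arrays.

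The sequences that follow show the left part in capitals for the 5 of the 12 higher genes with the largest gap and for all 3 lower genes, written in the direction of the motif. The other higher genes with it were Kirrel2, Rragb, Celsr3, Lhfpl5, D830030K20Rik, Gsx1 and Zdhhc19. They stand at chr9:106656319-106656359 (minus) for Grm2 and chr6:91807574-91807614 (plus) for Grip2, a scaffold of AMPA receptors. Dner, a neuronal Notch ligand, has it at chr1:84696339-84696379 (minus), Ppfia3, a liprin of the active zone, at chr7:45367033-45367073 (minus), and Cdh9, a synaptic cadherin, at chr15:16728869-16728909 (minus). The lower genes have it at chr9:66514651-66514691 (minus) for Fbxl22, chr6:67037580-67037620 (minus) for Gadd45a and chr7:28981872-28981912 (plus) for Map4k1.
Grm2: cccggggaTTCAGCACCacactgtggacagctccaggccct
Grip2: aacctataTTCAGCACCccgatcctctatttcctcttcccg
Dner: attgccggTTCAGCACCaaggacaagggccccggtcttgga
Ppfia3: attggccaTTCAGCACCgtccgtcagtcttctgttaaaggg
Cdh9: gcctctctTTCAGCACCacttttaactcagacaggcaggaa
Fbxl22: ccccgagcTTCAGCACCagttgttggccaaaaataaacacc
Gadd45a: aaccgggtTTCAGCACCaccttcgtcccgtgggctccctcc
Map4k1: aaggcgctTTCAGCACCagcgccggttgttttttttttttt

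Dner read 15012 and 12468 against 207, 332, 308 and 549.6, above the background spread on 2 of the 4 dim arrays. Cdh9 read 215 and 239.6 against 8.68, 7.68, 9.7 and 8.67, in the background spread on all 6. Grip2 and Ppfia3 differed by 4.03 and 3.70. Fbxl22, an F-box protein of muscle, ran the other way with 38.3 and 23.7 against 1219, 1439, 2487 and 2476, and Gadd45a, a stress-response protein, with 1417 and 1994 against 16697, 12213, 8065 and 10225. The motif occurred on both sides of the contrast, in few genes each.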

How the data were processed

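RNA of 6 samples was read on 1-colour arrays, 1 per label group. The deposited values, linear intensities for 26423 probes, are those the authors processed, and per the submitters' processing notes limma was used, with no version or role given. Values were raised to each array's 5th percentile of positive values, turned to log2 and centred on the array's median. Symbols were updated through RefSeq's gene table (GRCm38.p6). A symbol was held by 20377 probes and none by 6046, and 2278 genes had several probes, of which the brightest on average stood for the gene. Fold bounds replaced readings under the olfactory receptor percentile by it.

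The sides, members and 55 gene lists were chosen with earlier results of these data known. Genes were named by rule: in each direction the 12 largest gaps above background on all arrays, the 12 largest bounds, up to 4 per list by gap, up to 2 against a list, and the 8 largest differences each way within the brain-marker pair. Other genes were named after their values were seen. No test was run. The counting rule was run on simulated arrays with equal small noise on each. They did not hold the differences seen among the 4 other arrays. The run therefore checks only how the rule is computed, not how reliable the counts are. Alternatives changed scaling, floor, probe choice, threshold, filter and arrays. Python 3.11.15, numpy 2.4.6, pandas 2.3.3 and matplotlib 3.10.9 were used.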

Additional observations from a re-analysis of the deposited data

How the results depend on the processing

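The counts of 1968 higher and 2019 lower genes stayed within 1.5 times under no scaling, quantile normalization, a floor at the 1st percentile and the mean of a gene's probes. With arrays left out, where the counts could not fall, they ran from 2036 to 2175 and from 2127 to 2377. A filter added after seeing the data, that every bright array lie above the background spread, left 1489 and 1507. Without scaling, 97.5% of the higher and 87.3% of the lower genes were counted again. The floor at the olfactory receptor percentile gave 876 higher genes, and 1194 of the 2019 lower genes were counted again among its 1701, so that it also brought in other genes. With this floor each array was centred on its own percentile, which lay higher on the brain-marker arrays. How much of the change came from that shift was not tested. Keeping only genes above the median level gave 954 higher genes, by leaving out dim genes. A gap of any size gave 5173 and 5834, and one of 4-fold 1064 and 777. Of 2838 differences of named genes under alternatives, 276 moved by more than the spread on the sides. A change of sign was counted only where the reported difference was at least 2-fold. Among those, 1 changed sign, Elavl1, at 0.34 with the mean of its probes, which run in opposite directions. Of 605 list medians, 57 moved, and 0 of those at least 2-fold changed sign. Most of the movement fell on the floor at the olfactory receptor percentile. Under it, 206 differences of named genes moved and 52 did not, and 36 list medians moved and 19 did not. No paired analysis was possible because each label group has 1 array. Signal over background limits the dim genes, whose folds are lower bounds.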

Other observations

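Genes that cut across the lists of the report gave further readings, named after their values were seen and given as descriptions. In the hippocampal list, C1ql3, a secreted synaptic organiser, read 2005 and 2007 against 12.6, 11.9, 17.3 and 38.2, and Fibcd1, a gene of hippocampal pyramidal cells, read 2169 and 1542 against 252, 255, 227 and 251. Dsp, which that list holds as a marker of the dentate gyrus, ran the other way, and epithelia use it in desmosomes. In the monoamine list, Slc6a3, the dopamine transporter, read 1326 and 1456 against 339, 459, 441 and 519, and Th, the first enzyme of dopamine synthesis, read 961 and 951 against 119, 149.6, 126 and 113. Slc18a2, the vesicular monoamine transporter, read 31.6 and 17.3 against 2398, 4162, 9.64 and 30, with the arrays labelled SHT brain and mock uterus above the brain-marker arrays.

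Lcn2, Clca1 and Muc1, secreted or surface proteins of epithelia, differed among the 4 arrays without brain markers. Lcn2, the iron-binding lipocalin, read 70.5 and 90.5 on the brain-marker arrays and 29127, 742, 1817 and 27698 on the others. Clca1, a secreted regulator of mucus, read 257 and 206 against 65723, 917, 17905 and 4919.6, at the top of the scale on the array labelled SHT brain, and Muc1, a mucin of the luminal surface, read 9.98 and 7.33 against 4331, 165, 271 and 1867. For these 3 genes the array labelled SHT brain was the brightest and the one labelled mock uterus the dimmest of the 4. Inhbb, the beta B subunit of inhibins and activins known from granulosa cells, was more even, with 387 and 368 against 8751, 7586, 15644 and 7714. Aqp1, a water channel of choroid plexus and of vessels elsewhere, read 286 and 228 against 2655, 2725, 5259 and 13846, brightest on the array labelled SHT uterus.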
